A study of Homo sapiens with 18 samples.

Results

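Unsorted M1B26 cells were compared with unsorted MCF10A-CT cells on 4 of the 18 arrays of the series, 2 per line, over all genes. The arrays were those whose labels give the line and the unsorted population, and no measured value entered that choice. MCF10A is a non-malignant, immortalised human mammary epithelial cell line, and MCF10A-CT is its control, kept in standard medium with serum, insulin, hydrocortisone, cholera toxin and EGF. M1B26 was derived from MCF10A cells sorted for the BMP receptor BMPR1B, exposed long term to BMP2 and IL6, passed through soft agar and expanded from 3 clones, and it stays in medium with both factors. IL6 was at 10 ng/ml, and for BMP2 the sample labels give 5 ng/ml and the growth protocol 10 ng/ml. The line and its medium therefore cannot be told apart in this comparison. MC26 and the CD10- and CD10+ fractions of M1B26 and MCF10A-CT are used below to place the values. All 18 arrays also entered the fit, the choice of probe set and the filter on low genes, and so shaped SEs and p values. MC26 had the same 2 factors but no BMPR1B sort, and the study describes no expansion from soft agar clones for it. The study also reports faster transformation of the sorted cells. All 3 lines derive from MCF10A cells. Cells of every sample were trypsinized, and unsorted cells were frozen at once, whereas sorted cells were first stained for CD10 and passed through the cytometer.

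BMP2 is a secreted ligand that binds type 1 receptors such as BMPR1B and acts through SMAD proteins, with the ID genes among its best known targets. IL6 signals through the shared receptor IL6ST and the factor STAT3, which induces the feedback inhibitor SOCS3. CD10, encoded by MME, is a zinc endopeptidase at the cell surface that marks basal and immature cells of the mammary gland. The question was which genes differ in the bulk population of the transformed line, before any selection by CD10.

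The array annotation gave 19775 genes with 1 probe set each (the one with the highest mean over the 18 arrays), of which 12171 lay above the background level and were tested. Values are intensities as deposited, and differences are M1B26 minus MCF10A-CT on the log2(intensity + 1) scale with their SE from limma, n = 2 arrays per line. A gene passed at a Benjamini-Hochberg adjusted p under 0.05 in limma's moderated test over all 12171 genes. A group mean under 3.93 on that scale (an intensity of 14.3) is called near background. A fold against such a group is given as "at least", against the background level or the array's own value where that was higher. The 2 arrays of a group correlated at 0.949 to 0.979 over the tested genes, at 0.971 for unsorted M1B26 and 0.976 for unsorted MCF10A-CT. The arrays are labelled biological replicates, and nothing says how far apart the cultures were.

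Both lines carried the markers of mammary epithelium. KRT5, a basal keratin, had 4961 and 5410 on the M1B26 arrays, against 5401 and 7924 on the MCF10A-CT arrays. The luminal keratin KRT18 had 4505 and 4242 in M1B26, against 4376 and 4981 in MCF10A-CT. EPCAM, an epithelial adhesion molecule, had 2492 and 2462 in M1B26, against 3620 and 2902 in MCF10A-CT. None of the 3 passed. TP63 was not analysed here. The leukocyte antigen PTPRC (CD45) lay under the background level on all 4 arrays, at 3.48 and 7.13 in M1B26 and 5.79 and 1.06 in MCF10A-CT, as did the endothelial cadherin CDH5.

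M1B26 differed from MCF10A-CT at 82 genes, and most of them were higher. There were 66 genes higher (0.542% of those tested) and 16 lower (0.131%), in all 0.674% of 12171 genes, while 879 genes had an unadjusted p under 0.05. The median difference over all genes was 0.01, which the scaling of every array to the same median largely fixes, so a shift of all genes together could not be seen. For each of the 82 genes both M1B26 arrays stood on one side of both MCF10A-CT arrays. Such separation is common with 2 arrays against 2: 20.1% of all tested genes had both M1B26 arrays higher and 15.5% had both lower. By the fitted difference, 46 of the 66 higher genes differed 4-fold or more and 24 of them 8-fold or more, and of the 16 lower genes 7 and 2 did so. In MCF10A-CT 17 of the higher genes lay near background, and in M1B26 4 of the lower ones. By the array's probe set naming, 28 of the higher and 6 of the lower genes were read by a probe set able to hybridise with more than 1 transcript. Second probe sets above background existed for 44 of the 82 genes, 77 in all, and 4 of these, in JHY, RASEF and SOCS3, had the opposite sign.

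**Figure D1:**
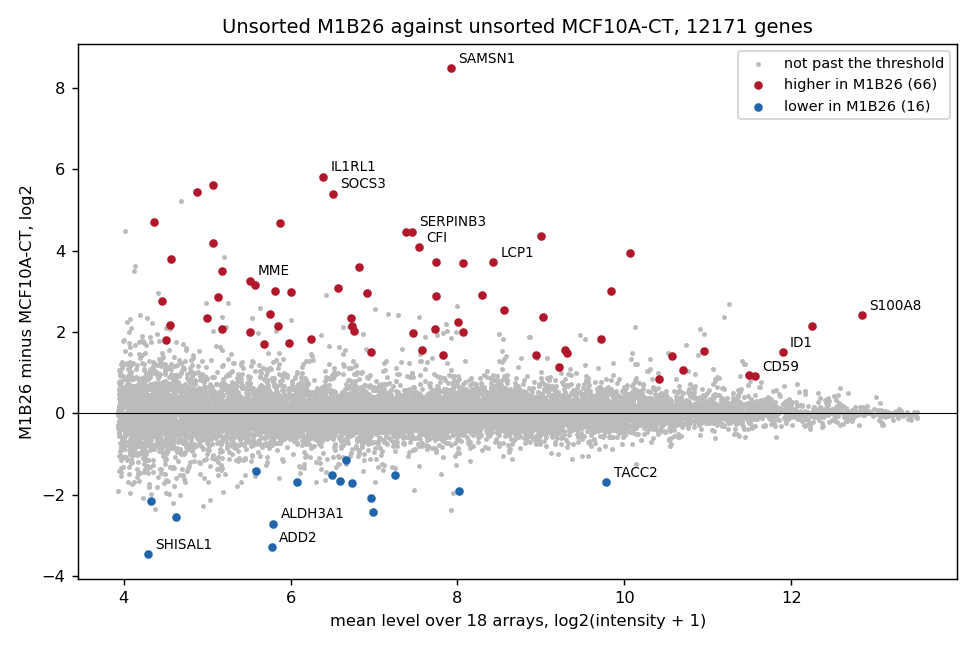
Difference between unsorted M1B26 and unsorted MCF10A-CT (vertical axis, log2) against the mean level over the 18 arrays (horizontal axis, log2(intensity + 1)), 1 point per gene. The 66 red points are the genes called higher in M1B26, up to 8.48 for SAMSN1, and the 16 blue points those called lower, down to -3.47 for SHISAL1.

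Each call rested on few arrays. With each of the 4 arrays left out in turn the count was 30 without M1B26 replicate 1, 38 without M1B26 replicate 2, 63 without MCF10A-CT replicate 1 and 20 without MCF10A-CT replicate 2. The 16 genes called in all 4 of these fits were SAMSN1, IL1RL1, CNRIP1, SOCS3, SERPINB4, SERPINB3, IL1R2, SRGN, CFI, HSD17B2, LCP1, C1S, NRCAM, S100A8, GSDMC and SHISAL1. The other 66 lost the call without at least 1 array, and 27 of these lost it whichever array was left out. The sign of none of the 82 turned in these 4 fits.

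SOCS3 and ID1, named above as targets of IL6 and BMP2 signalling, were both higher, and line and medium cannot be told apart here. SOCS3 had 233 and 207 on the M1B26 arrays, against 14.2 and 0.81 on the MCF10A-CT arrays. The MCF10A-CT level lay near background and its 2 arrays were far apart, whereas those of M1B26 were close to each other. The difference was 5.39 ± 0.70 (adjusted p = 0.00136), or at least 14.5-fold. A second SOCS3 probe set gave 4.16 in M1B26 and 4.62 in MCF10A-CT on the log2 scale, both just above background, and so did not show the rise.

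ID1, an inhibitor of basic helix-loop-helix factors, had 4572 and 6279 in M1B26, against 2038 and 1737 in MCF10A-CT. It was among the most abundant transcripts that passed, and rose by 1.51 ± 0.31 (adjusted p = 0.0381). The ID1 call was lost whichever of the 4 arrays was left out, with adjusted p up to 0.385. ID2 had 43.1 and 188 in M1B26, against 11.6 and 22.1 in MCF10A-CT, a difference of 2.42 that did not pass (adjusted p = 0.796). ID3 had 143 and 1461 in M1B26, against 212 and 442 in MCF10A-CT, so that its M1B26 arrays lay on either side of the control arrays. Replicate 1 was the low array for ID2 and ID3 in both lines.

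Few other genes of the 2 pathways passed. BMPR1B, the receptor for which M1B26 cells had once been sorted, had 200 and 262 in M1B26, against 235 and 227 in MCF10A-CT, with a difference of -0.02 and a 95% interval of -0.58 to 0.55. Of the 10 tested BMP receptors and co-receptors 0 passed and the median difference was 0.09. Of 16 tested BMP-SMAD targets and antagonists ID1 was the single call (median 0.29). HEY1, a transcriptional repressor, was the next by p, with 187 and 136 in M1B26 and 104 and 55.4 in MCF10A-CT (adjusted p = 0.29). Of 18 tested genes of the IL6 family and STAT3 response SOCS3 was the single call (median 0.15). IL6ST had 1664 and 1766 in M1B26, against 1648 and 1344 in MCF10A-CT, and did not pass. LTBP1, which binds latent TGF-beta in the matrix, was the single call among 16 genes of the TGF-beta pathway, with 2082 and 1689 in M1B26, against 731 and 682 in MCF10A-CT (1.41 ± 0.22, adjusted p = 0.0043).

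**Figure D2:**
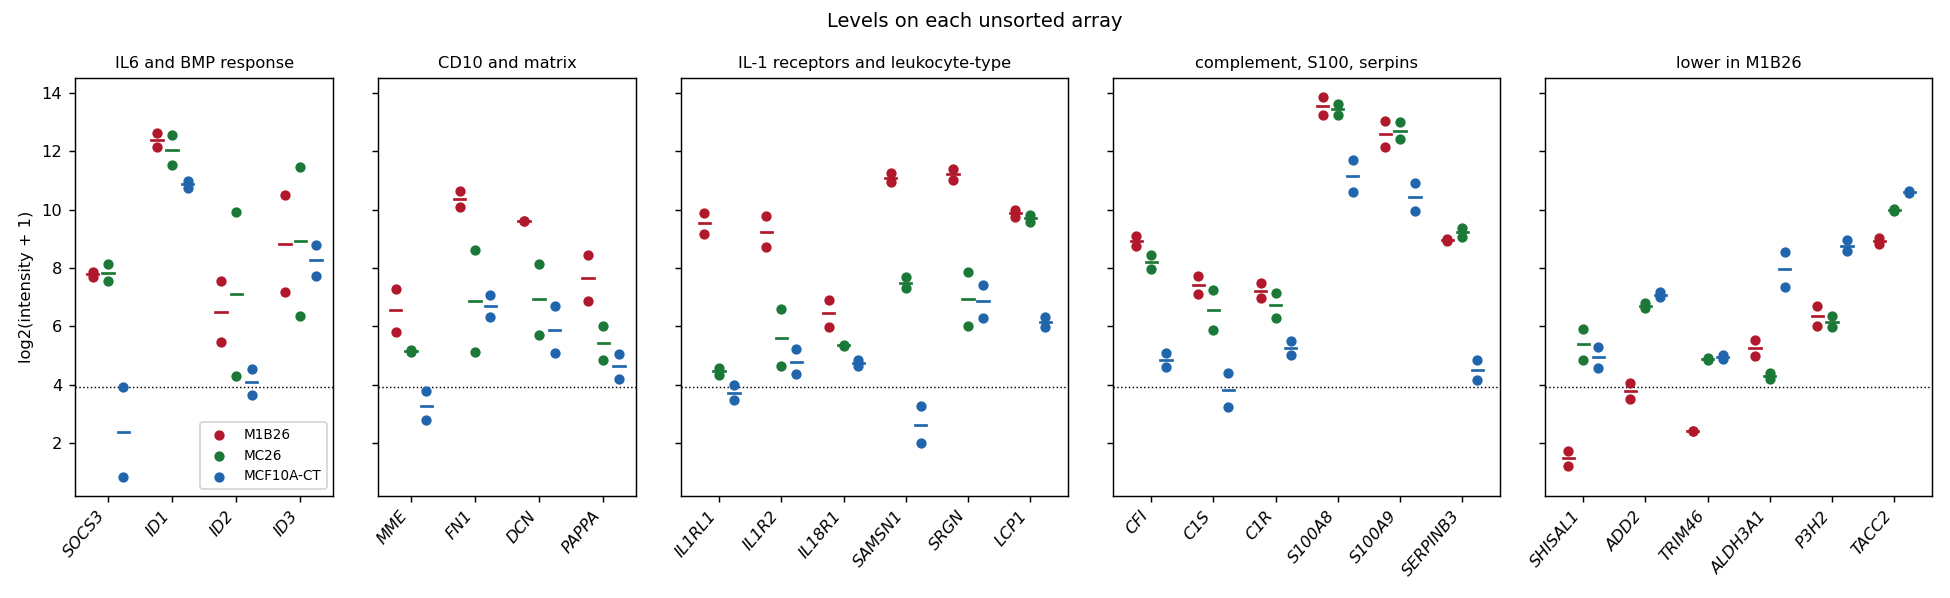
Level of 26 genes on each unsorted array, log2(intensity + 1), with 1 point per array and a dash for the mean of 2 arrays, M1B26 in red, MC26 in green and MCF10A-CT in blue. The dotted line is the background level of 3.93. M1B26 and MC26 lie together and apart from MCF10A-CT for SOCS3, LCP1, CFI, S100A8, S100A9 and SERPINB3, while M1B26 stands alone for IL1RL1, SRGN and, below the others, for SHISAL1, ADD2 and TRIM46.

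MME was higher in unsorted M1B26 cells, with 156 and 55.1, against 12.7 and 5.95 in MCF10A-CT, where it lay near background. The difference was 3.26 ± 0.64 (adjusted p = 0.0247), or at least 6.14-fold, and a second MME probe set gave 4.10. The call was lost without M1B26 replicate 1 (adjusted p = 0.312) and without either MCF10A-CT array (up to 0.382). On the unsorted arrays alone, a larger share of CD10+ cells and more MME RNA per cell cannot be told apart. For the protein, the study reports from flow cytometry a larger share of CD10+ cells in M1B26 and more CD10 on each of them. On the sorted arrays, CD10+ cells had 1269 and 1021 in M1B26, against 48.3 and 65.0 in MCF10A-CT (4.32, adjusted p = 3.76e-04), so that the level within CD10+ cells differed too.

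The ENI10 signature, which the study drew from CD10+ against CD10- MCF10A-CT cells, split into parts. Those sorted arrays are not among the 4 compared, but they entered the fit, the choice of probe set and the filter. Of 96 tested members outside cell division 14 rose and 0 fell, with a median of 0.30. They were AOX1, C1R, C1S, CD59, DCN, FN1, GALNT15, IL1R2, IL1RL1, MME, NAMPT, SAMSN1, SLFN5 and SRGN. In this group 47 members had both M1B26 arrays higher and 9 had both lower. Among all tested genes 0.542% were called higher and 0.131% lower, 20.1% had both M1B26 arrays higher and 15.5% had both lower. Of the 50 members tied to cell division 0 passed, 4 lay above 0 and the median was -0.29, and 7 further members, all from the G1-S or G2-M lists, were counted in neither part. The whole list of 153 tested members had a median of -0.09, so the median and the calls of ENI10 differed in sign. The sign was not the same on every pair of arrays. With arrays paired by number, replicate 1 gave -0.23 for the whole list and -0.70 for the cell division part. Replicate 2 gave 0.21 and 0.12. Nothing says that a shared number marks a shared culture. Over all tested genes these medians were -0.10 on replicate 1 and 0.14 on replicate 2. On the sorted arrays the whole list had median line differences of 1.09 in CD10- and 1.07 in CD10+ cells. The cell division part had 2.05 and 1.35, and all tested genes 0.23 and 0.31. These arrays include the MCF10A-CT ones from which the list was drawn. The study reports a higher ENI10 score, an enrichment score per sample and so another measure, in M1B26 than in MCF10A-CT. GALNT15, a glycosyltransferase, had 305 and 124 in M1B26, against 18.4 and 26.7 in MCF10A-CT (3.08 ± 0.59, adjusted p = 0.0213).

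Receptors of the interleukin-1 family were among the largest increases. These receptors lie next to each other on chromosome 2, where IL1R2, IL1R1, IL1RL2, IL1RL1 and IL18R1 follow in that order. IL1RL1 (ST2), the receptor of IL33, had 956 and 581 in M1B26, against 14.9 and 10.1 in MCF10A-CT (5.81 ± 0.56, adjusted p = 8.10e-05), or at least 48.0-fold. Sorted MCF10A-CT cells had more, with 36.8 and 144 in CD10- cells and 210 and 387 in CD10+ cells. The line difference was -0.26 in CD10- cells (adjusted p = 0.77) and 2.63 in CD10+ cells (adjusted p = 0.00449). IL1R2, a decoy receptor that binds IL1 without signalling, had 888 and 418 in M1B26, against 19.8 and 36.2 in MCF10A-CT (4.46 ± 0.63, adjusted p = 0.0024). IL18R1, the receptor of IL18, had 119 and 62.8 in M1B26, against 27.8 and 23.9 in MCF10A-CT (1.71 ± 0.33, adjusted p = 0.021). The signalling receptor IL1R1, which sits between IL1R2 and IL1RL1, had 301 and 133 in M1B26, against 132 and 81.3 in MCF10A-CT, a difference of 0.95 that did not pass. Of the 11 tested members of the family 3 passed, 10 lay above 0 and the median was 1.67. Over all tested genes 0.542% were called higher, 51.1% lay above 0 and the median was 0.01. The ligands IL1A (1.67, adjusted p = 0.0764) and IL1B (1.96, adjusted p = 0.225) did not pass, although IL1A had 3570 and 2867 in M1B26, against 1737 and 578 in MCF10A-CT.

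SAMSN1, an adaptor protein of lymphocytes, showed the largest difference of all. It had 2467 and 1963 in M1B26, against 8.62 and 2.97 in MCF10A-CT, where it lay near background (8.48 ± 0.55, adjusted p = 4.26e-07), or at least 144-fold. A second SAMSN1 probe set gave 7.36. SRGN, the core protein of a granule proteoglycan, had 2718 and 2069 in M1B26, against 170 and 78.2 in MCF10A-CT (4.35 ± 0.50, adjusted p = 3.66e-04). LCP1 (L-plastin), an actin-bundling protein, had 868 and 1021 in M1B26, against 79.6 and 62.5 in MCF10A-CT (3.72 ± 0.24, adjusted p = 4.26e-07). In all 3 genes the lines were far apart, while the MCF10A-CT arrays were close to each other for LCP1 but not for SAMSN1 or SRGN. RHOH, a small GTPase of blood cells (99.1 and 146 in M1B26, against 1.09 and 9.34 in MCF10A-CT), and PTPN22, a lymphocyte phosphatase (138 and 51.8, against 9.54 and 1.09), were also higher, by at least 7.95-fold for RHOH and at least 5.61-fold for PTPN22, since both lay near background in MCF10A-CT. RHOH lies next to the likewise higher CHRNA9, a nicotinic receptor subunit, on chromosome 4. KIR2DL5A, an immunoglobulin-like receptor of natural killer cells, had 361 and 135 in M1B26, against 21.0 and 16.7 in MCF10A-CT, on a probe set annotated as able to hybridise with other transcripts.

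Several of these genes are best known from blood cells, a grouping made after the calls were seen and covered by no list. Of 16 markers of blood and endothelial cells on the array 6 were above background overall and 0 passed. Their summed intensity was 624 and 394 in M1B26, against 441 and 302 in MCF10A-CT, with overlapping ranges. TEK, an endothelial receptor, was the single member with both M1B26 arrays higher, at 60.4 and 21 in M1B26, against 9.55 and 6.34 in MCF10A-CT (2.06, adjusted p = 0.5), and 3 members had both lower. PTPRC, CD3E, CDH5 and VWF were at or under the background level on every one of the 4 arrays.

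Of 10 tested complement genes 4 rose and 0 fell. In all, 9 had both M1B26 arrays above both control arrays, and the median was 0.95. Of all tested genes 0.542% were called higher and 20.1% stood apart in that way, and their median was 0.01. In sorted cells the median of the list was -0.87 in CD10- cells and 0.62 in CD10+ cells. CFI, the protease that inactivates C3b and C4b, had 553 and 430 in M1B26, against 33.3 and 23.3 in MCF10A-CT (4.08 ± 0.26, adjusted p = 4.26e-07). The neighbouring genes of the C1 proteases, C1S and C1R on chromosome 12, both rose: C1S had 211 and 138 in M1B26, against 20.3 and 8.48 in MCF10A-CT (3.59 ± 0.42, adjusted p = 5.04e-04), or at least 9.52-fold as the control lay near background, and C1R had 178 and 125, against 31.3 and 44.3 (1.97 ± 0.36, adjusted p = 0.0154). CD59, which blocks the membrane attack complex, had 3431 and 4056 in M1B26, against 2051 and 1910 in MCF10A-CT (0.91 ± 0.19, adjusted p = 0.0429). Thus a protease pair that starts the classical pathway and a pair of inhibitors passed together. CFB, the protease of the alternative pathway, had 84.6 and 64.9 in M1B26, against 28.9 and 23.9 in MCF10A-CT, and did not pass (adjusted p = 0.225). The CD59 call was lost whichever array was left out, and the C1R call without any array other than M1B26 replicate 2.

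The alarmins S100A8 and S100A9, which form calprotectin, were already abundant in MCF10A-CT and higher still in M1B26. S100A8 had 14785 and 9714 in M1B26, against 3303 and 1545 in MCF10A-CT (2.41 ± 0.27, adjusted p = 3.19e-04). S100A9 had 8492 and 4563 in M1B26, against 1943 and 1002 in MCF10A-CT (2.16 ± 0.31, adjusted p = 0.0027). Both genes were higher on replicate 1 than on replicate 2 in each line, and the lines did not overlap. Of the 13 S100 genes tested these 2 passed, and the median of the family was 0.12.

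The squamous cell serpins SERPINB3 and SERPINB4, inhibitors of proteases, lie next to each other on chromosome 18. SERPINB3 had 492 and 513 in M1B26, against 27.9 and 17.0 in MCF10A-CT (4.46 ± 0.46, adjusted p = 1.41e-04). SERPINB4 had 167 and 159 in M1B26, against 4.72 and 6.14 in MCF10A-CT (4.68 ± 0.61, adjusted p = 0.00136), or at least 10.8-fold. Both probe sets could also hybridise with similar transcripts, and the genes are near-identical copies, so their shares of the signal are uncertain. Over the 250 bases before the start site in RefSeq (GRCh38.p14) 247 were identical. The stretches are shown to make that likeness visible, with the 3 differing bases in capitals (G126A, G201A and C228T, SERPINB3 base first, counted from 1 at the 5′ end). They lie at chr18:63661894-63662143 for SERPINB3 and chr18:63644257-63644506 for SERPINB4, both on the minus strand.
SERPINB3: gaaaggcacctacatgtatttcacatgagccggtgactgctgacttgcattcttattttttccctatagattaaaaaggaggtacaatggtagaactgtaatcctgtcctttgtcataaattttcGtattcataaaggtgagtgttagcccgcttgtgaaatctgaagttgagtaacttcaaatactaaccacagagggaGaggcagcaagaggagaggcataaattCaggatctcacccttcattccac
SERPINB4: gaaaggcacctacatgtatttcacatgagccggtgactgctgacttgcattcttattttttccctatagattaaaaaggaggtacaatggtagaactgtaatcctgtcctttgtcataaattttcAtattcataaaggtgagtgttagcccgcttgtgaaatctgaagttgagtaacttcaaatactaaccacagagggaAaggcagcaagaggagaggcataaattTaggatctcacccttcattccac

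CXCL3, a chemokine that attracts neutrophils, had 374 and 423 in M1B26, against 70.1 and 39.2 in MCF10A-CT (2.90 ± 0.58, adjusted p = 0.0271), and CSF3, the granulocyte growth factor, had 888 and 707, against 217 and 83.3 (2.55 ± 0.44, adjusted p = 0.0119). The CXCL3 call was lost whichever array was left out (adjusted p up to 0.409) and the CSF3 call without any array other than MCF10A-CT replicate 1 (up to 0.229). Of 7 tested inflammatory chemokines 6 had both M1B26 arrays above both MCF10A-CT arrays, with a median of 2.12, but CXCL3 was the single call. Such separation was seen for 20.1% of all tested genes. CCL20 (2.69, adjusted p = 0.0763), CXCL1 (2.38, adjusted p = 0.173), CXCL8 (2.12, adjusted p = 0.18) and CXCL2 (1.48, adjusted p = 0.647) did not pass. For each of these 4 genes MCF10A-CT replicate 2 was the lowest of the 4 arrays, for instance 382 against 1773 on replicate 1 for CCL20, whose M1B26 arrays had 5823 and 4860. PF4, a chemokine in the same cluster on chromosome 4 as CXCL3, had 79.0 and 90.8 in M1B26, against 23.1 and 27.0 in MCF10A-CT (1.72 ± 0.30, adjusted p = 0.0118).

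The CXCL3 start is shown because it was 1 of 2 promoters among the higher genes that held the letters of an NF-kB motif (GGGA, any 2 bases, then TTCC, on either strand). The capitals mark 2 overlapping matches of that motif on opposite strands, in the 250 bases before the start site at chr4:74038690-74038939 (GRCh38.p14, minus strand, RefSeq).
CXCL3: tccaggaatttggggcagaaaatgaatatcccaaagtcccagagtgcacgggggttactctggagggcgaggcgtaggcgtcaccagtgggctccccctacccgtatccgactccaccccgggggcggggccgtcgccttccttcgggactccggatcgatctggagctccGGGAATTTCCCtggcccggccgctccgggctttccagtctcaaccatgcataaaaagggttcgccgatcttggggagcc
Promoters were found for 46 of the 66 higher genes and 14 of the 16 lower genes, matched by symbol. The NF-kB letters stood in 2 of the 46 (4.35%), CXCL3 and GALNT15, against 1.41% of 9915 promoters of tested genes. The STAT letters TTCNNNGAA stood in 2 (4.35%), PROS1 and CD59, against 5.48% of all, and the AP-1 letters TGANTCA in 3 (6.52%), IL1RL1, GALNT15 and TMEM156, against 3.79%. None of the 3 was found before a lower gene. These are matches of letters in a short window and say nothing of binding.

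The matrix genes FN1 and DCN rose. FN1 (fibronectin) had 1606 and 1102 in M1B26, against 78.3 and 133 in MCF10A-CT (3.69 ± 0.77, adjusted p = 0.0387). DCN (decorin), a matrix proteoglycan, had 779 and 783 in M1B26, against 33 and 102 in MCF10A-CT (3.72 ± 0.75, adjusted p = 0.0295). The lines were wide apart for both genes, but the SE was large and both calls were lost whichever array was left out. PAPPA, a protease that cleaves IGF-binding proteins, had 345 and 117 in M1B26, against 32.6 and 17.5 in MCF10A-CT (3.01 ± 0.64, adjusted p = 0.0435). WNT5A, a ligand of non-canonical Wnt signalling, had 357 and 236 in M1B26, against 56.6 and 23.2 in MCF10A-CT (2.96 ± 0.42, adjusted p = 0.0027). Of 17 tested mesenchymal and matrix genes these 2, FN1 and DCN, passed, 15 lay above 0 and the median was 0.65. Among all tested genes 0.542% were called higher and 51.1% lay above 0. FAP, a fibroblast protease, did not pass (2.21, adjusted p = 0.083).

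The fibroblast markers above background overall lay higher in M1B26, while others were under background. Of the 10 markers 3 were tested, and all 3 had both M1B26 arrays higher, with a median of 2.21. DCN was the single call among them. Their summed intensity over 10 markers was 1340 and 1836 in M1B26, against 229 and 333 in MCF10A-CT, mainly from DCN and FAP. On the M1B26 arrays 6 and 4 of the 10 lay under the background level, against 7 and 7 on the MCF10A-CT arrays. The collagen and receptor genes COL3A1, PDGFRA and PDGFRB did so on all 4 arrays. The part that cells of this type had in the matrix genes was not tested.

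Cadherins and keratins gave no call. CDH1 (E-cadherin) had 994 and 925 in M1B26, against 1354 and 1229 in MCF10A-CT, a difference of -0.43 with a 95% interval of -0.95 to 0.09. VIM (vimentin) had 6508 and 7010 in M1B26, against 5278 and 6654 in MCF10A-CT (0.19, interval -0.17 to 0.55). CDH2 (N-cadherin) had 109 and 104 in M1B26, against 156 and 134 in MCF10A-CT (-0.44, interval -1.40 to 0.51). ZEB1, a repressor of epithelial genes, had 92.5 and 73.3 in M1B26, against 35.9 and 37.6 in MCF10A-CT, and did not pass (1.14, adjusted p = 0.329). The arrays of the 2 lines stood apart for CDH1, CDH2 and ZEB1 and overlapped for VIM. Among keratins KRT14 had the widest gap, with 1749 and 2799 in M1B26, against 312 and 878 in MCF10A-CT (2.08, adjusted p = 0.159), and KRT8 had 452 and 463, against 707 and 826 (-0.74, adjusted p = 0.326). Of the 12 adherens junction and cadherin genes, 8 desmosomal genes, 17 tight junction genes, 12 luminal markers, 10 basal markers and 11 integrins 0 passed in each list, with medians between -0.13 and 0.28. With 2 arrays per line these non-calls do not show that levels were equal, and CDH1, EPCAM and KRT8 had both M1B26 arrays lower. In sorted CD10+ cells the medians of the same lists were -0.06, -1.13, -1.58, -0.36, -1.40 and 0.10, in that order. In CD10- cells they lay between -0.40 and 0.15. Over all tested genes the medians were 0.31 in CD10+ and 0.23 in CD10- cells. The 16 epithelial regulators had a median of -0.23 in unsorted cells, with 11 below 0, against -0.49 in CD10- cells and -1.75 in CD10+ cells. TFAP2A, a transcription factor, was the single call among them in unsorted cells, and higher (0.85 ± 0.18, adjusted p = 0.0483). That call was lost whichever array was left out (adjusted p up to 0.557).

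**Figure D3:**
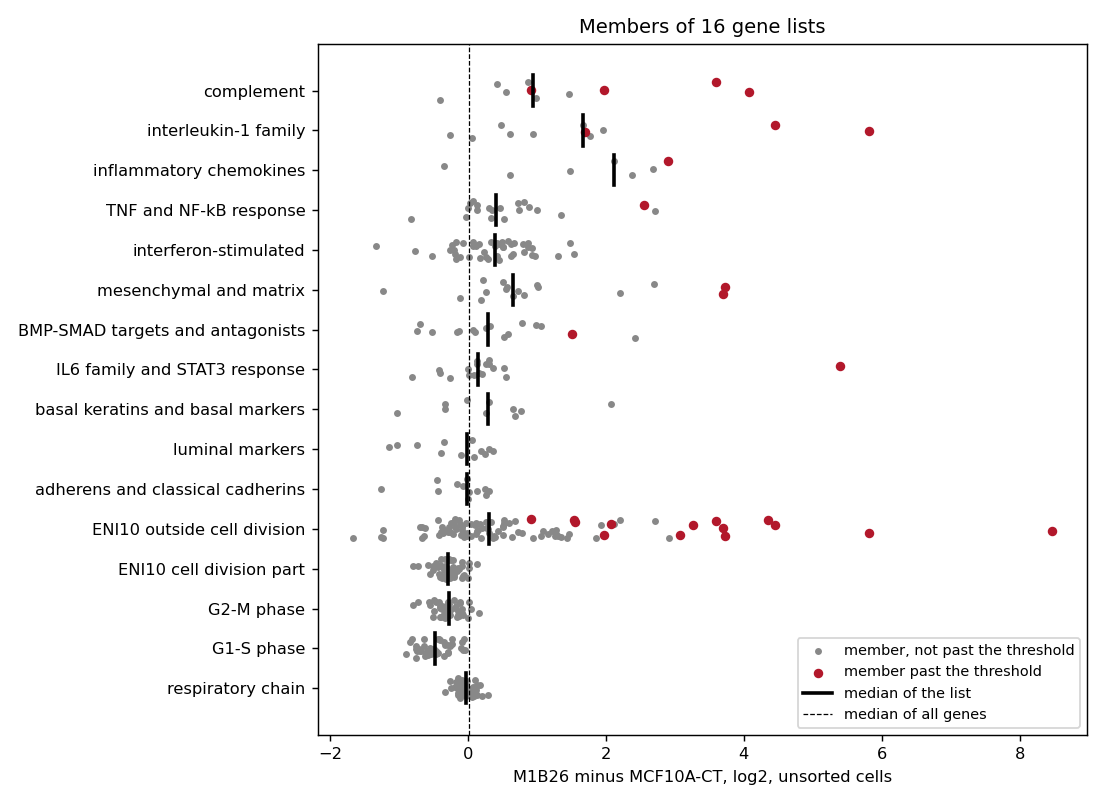
Differences between unsorted M1B26 and unsorted MCF10A-CT (log2) for the members of 16 gene lists, 1 point per gene, red where the gene passed, with a thick dash for the list's median and a dashed line for the median of all genes (0.01). Complement (0.95), interleukin-1 family (1.67) and chemokine (2.12) medians lie to the right and G1-S genes (-0.48) to the left.

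Enzymes and transporters were also among the increases. HSD17B2, which oxidises oestradiol and testosterone, had 1732 and 2896 in M1B26, against 126 and 167 in MCF10A-CT (3.94 ± 0.52, adjusted p = 0.00136). AOX1, aldehyde oxidase, had 265 and 448 in M1B26, against 76.0 and 87.2 in MCF10A-CT (2.07 ± 0.32, adjusted p = 0.0043). SLC7A11, the cystine transporter and a target of NRF2 and of the integrated stress response, had 2406 and 1924 in M1B26, against 916 and 579 in MCF10A-CT (1.56 ± 0.33, adjusted p = 0.0388). It was the single call among 17 NRF2 targets and aldo-keto reductases and among 24 genes of the integrated stress response. The stress response list was high on replicate 1 of both lines, with medians of 10.2 and 8.45 on the M1B26 arrays, against 9.64 and 8.85 on the MCF10A-CT arrays (log2). GCNT2, the I-branching enzyme, had 83.6 and 193 in M1B26, against 12.8 and 5.18 in MCF10A-CT, or at least 8.39-fold. It lies next to TFAP2A on chromosome 6.

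FMN2, a formin that nucleates actin, had 159 and 194 in M1B26, against 4.73 and 1.25 in MCF10A-CT, or at least 11.5-fold. CNRIP1, which binds the cannabinoid receptor CNR1, had 95.1 and 78.4 in M1B26, against 1.21 and 0.84 in MCF10A-CT, or at least 5.72-fold. NRCAM, a neuronal adhesion molecule, had 284 and 382 in M1B26, against 47.5 and 40.9 in MCF10A-CT (2.87 ± 0.28, adjusted p = 8.10e-05). The CHRNA9 transcript had 3095 and 2462 in M1B26, against 602 and 193 in MCF10A-CT (3.01 ± 0.57, adjusted p = 0.0199). For these 4 genes the lowest M1B26 array stood at least 4-fold above the highest MCF10A-CT array.

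The remaining increases spanned many levels. CES1, a liver-type carboxylesterase, had 927 and 1977 in M1B26, against 352 and 194 in MCF10A-CT (2.37, adjusted p = 0.0048). STEAP1, a membrane metalloreductase family member, had 1217 and 1326 in M1B26, against 484 and 267 in MCF10A-CT (1.82, adjusted p = 0.0043). Both stood clear of the control arrays. NAMPT, the rate-limiting enzyme of NAD salvage, had 3149 and 2320 in M1B26, against 1163 and 746 in MCF10A-CT (1.54, adjusted p = 0.0146). FSTL1, a secreted glycoprotein of the follistatin family, had 585 and 737 in M1B26, against 241 and 243 in MCF10A-CT (1.44, adjusted p = 0.0049). PROS1 (protein S), an anticoagulant cofactor, had 248 and 271 in M1B26, against 108 and 83.2 in MCF10A-CT (1.44, adjusted p = 0.0121). IL13RA1, a receptor chain for IL13 and IL4, had closely matched arrays, 725 and 719 in M1B26, against 326 and 328 in MCF10A-CT (1.14, adjusted p = 0.0154). FGL1, SMARCA1, KCNMB4, MIR210HG, MAP1LC3A, TMEM220, DAW1, RAB31, TMC6, GSDMC, TNIP3, JHY, TMEM156, RRAGD, PPP2R2C, PLAC8, VWDE, SLFN5, DLC1, CARHSP1, DNER and TMEM14C rose by 0.94 to 3.16. Of these, KCNMB4, MIR210HG, MAP1LC3A, TMEM220, TMC6 and JHY lay near background in MCF10A-CT.

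The 16 lower genes had smaller differences, down to -3.47. SHISAL1 had 2.35 and 1.33 in M1B26, against 38.7 and 23 in MCF10A-CT (-3.47 ± 0.50, adjusted p = 0.003), or at least 2.02-fold lower, since M1B26 lay near background. ADD2, a subunit of the membrane skeleton protein adducin, had 10.5 and 15.9 in M1B26, against 129 and 143 in MCF10A-CT (-3.29 ± 0.48, adjusted p = 0.00301), or at least 8.51-fold lower. ALDH3A1, a detoxifying aldehyde dehydrogenase, had 30.5 and 44.9 in M1B26, against 164 and 375 in MCF10A-CT (-2.71 ± 0.49, adjusted p = 0.0154). It was the single call among 12 aldehyde dehydrogenases, whose median was 0.06. P3H2, a collagen prolyl hydroxylase, had 102 and 64.4 in M1B26, against 383 and 497 in MCF10A-CT (-2.41 ± 0.35, adjusted p = 0.003).

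TRIM46, which organises microtubules at the base of axons, had 4.29 and 4.36 in M1B26, against 28.5 and 31.5 in MCF10A-CT, at least 2.03-fold lower. PTGS1, the constitutive cyclooxygenase, had 31.9 and 38.5 in M1B26, against 143 and 93.7 in MCF10A-CT (-1.70 ± 0.33, adjusted p = 0.0226). It was the single call among 12 prostaglandin pathway genes. The most abundant lower gene was TACC2, a centrosomal protein, with 521 and 453 in M1B26, against 1539 and 1594 in MCF10A-CT (-1.69 ± 0.31, adjusted p = 0.0181). GATM, GPM6B, TFCP2L1, TMEM161B-DT, ST3GAL5, KCNS3, AP1M2, ENKD1 and RASEF fell by 1.14 to 2.15, with GATM near background in M1B26 and at least 3.97-fold lower. The remaining RASEF probe sets pointed both ways, with differences from -0.74 to 0.74.

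Genes of DNA replication gave no call but leaned lower. Of 42 tested G1-S genes 0 lay above 0, with a median of -0.48, and of 48 G2-M genes 4 did, with a median of -0.28. M1B26 replicate 1 had the lowest median of the 4 arrays for both lists. The G1-S median was 8.63 and 9.46 on the M1B26 arrays, against 9.63 and 9.39 on the MCF10A-CT arrays (log2), so the M1B26 arrays lay on either side of replicate 2 of the control. MKI67, a proliferation marker, had 362 and 618 in M1B26, against 599 and 734 in MCF10A-CT (-0.49, interval -1.26 to 0.29). The 45 tested interferon-stimulated genes gave 0 calls, with 34 above 0 and a median of 0.39, and the 47 genes of the respiratory chain 0 calls, with a median of -0.03.

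MC26, the line with the same 2 factors, was set directly against M1B26. The BMPR1B sort, the expansion from soft agar clones and the time to transformation all differ between these lines and cannot be told apart. Only 12 genes passed, 0.0986% of those tested, while 553 had an unadjusted p under 0.05. M1B26 was higher at 9 and lower at 3. Of these 12 genes 9 were also among the 82, namely IL1RL1, SRGN, IL1R2, SAMSN1, KIR2DL5A, WNT5A, TRIM46, ADD2 and SHISAL1, each in the same direction. Both comparisons use the M1B26 arrays, so this overlap is given as a count alone. The other 3, UGT8, COL8A1 and AAAS, were named after their values were seen. The count of 12 was 4 without either M1B26 array, 46 without MC26 replicate 1 and 19 without MC26 replicate 2.

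IL1RL1 showed the sharpest step between the lines, with 956 and 581 in M1B26, against 22.9 and 19.3 in MC26 (5.08 ± 0.56, adjusted p = 0.0018). SRGN had 2718 and 2069 in M1B26, against 230 and 63.5 in MC26 (4.28 ± 0.50, adjusted p = 0.0018). SAMSN1 had 2467 and 1963 in M1B26, against 157 and 206 in MC26 (3.61 ± 0.55, adjusted p = 0.0131), so that MC26 lay between M1B26 and MCF10A-CT. ADD2 had 10.5 and 15.9 in M1B26, against 98.2 and 110 in MC26 (-2.91 ± 0.48, adjusted p = 0.0296). Each of these 4 genes set M1B26 apart from both other lines in unsorted cells.

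For another set of genes the difference between M1B26 and MC26 was near 0. The difference between M1B26 and MC26 was -0.06 for SOCS3 (95% interval -1.55 to 1.42), -0.25 for SERPINB3 (-1.23 to 0.74), 0.18 for LCP1 (-0.33 to 0.68), 0.10 for NRCAM (-0.50 to 0.70) and 0.11 for S100A8 (-0.46 to 0.68). The intervals for LCP1, NRCAM and S100A8 leave out a difference as large as that from MCF10A-CT by a wide margin. MME had 156 and 55.1 in M1B26, against 34.0 and 35.5 in MC26, and its difference of 1.39 did not pass (adjusted p = 0.998).

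**Figure D4:**
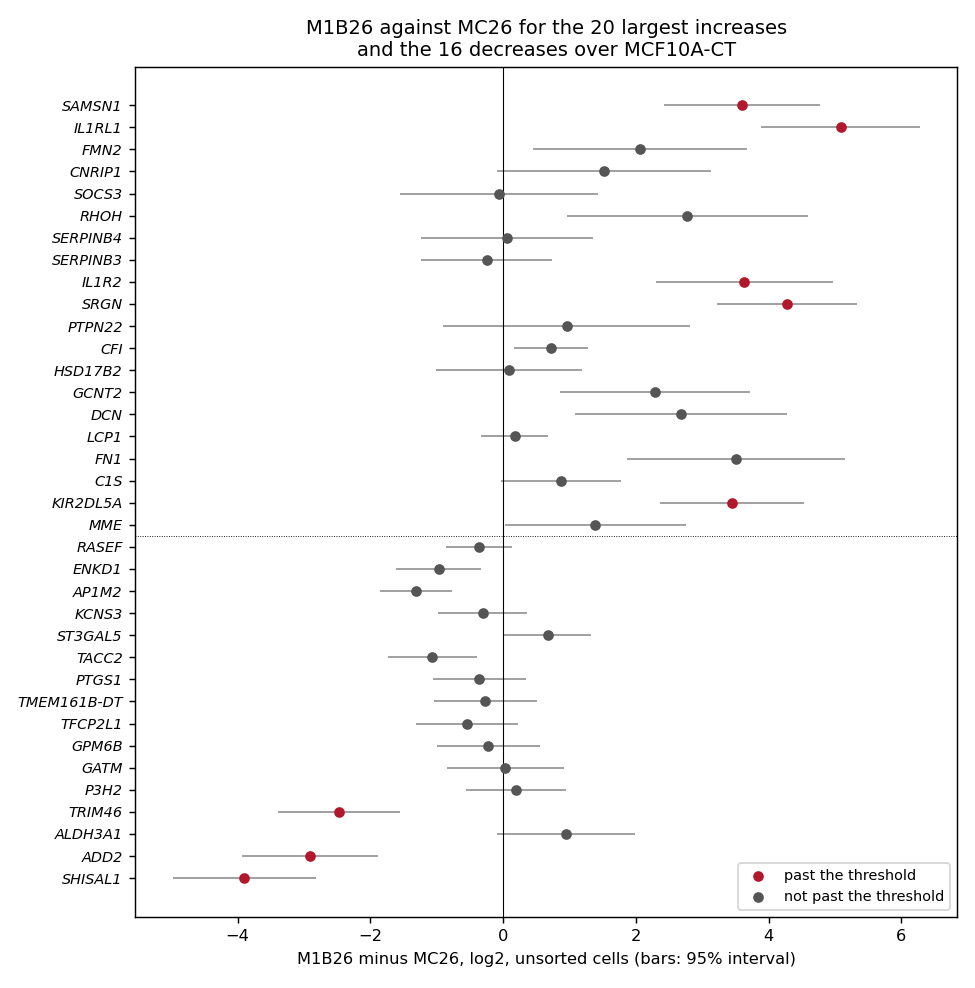
Difference between unsorted M1B26 and unsorted MC26 (log2, with 95% intervals from limma) for the 20 largest increases and, under the dotted line, the 16 decreases against MCF10A-CT. Red points passed: 5 of the 20 increases, led by IL1RL1 at 5.08, and 3 of the 16 decreases, while SOCS3, both SERPINB genes, HSD17B2 and LCP1 lie near 0.

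The CD10- and CD10+ fractions gave the same line comparison on 8 other arrays. There 26.4% of tested genes passed in CD10- cells and 26.4% in CD10+ cells, far more than in unsorted cells. The sorted MCF10A-CT arrays stood apart from all others in cell division genes, with G1-S medians of 6.96 to 8.11, against 8.63 to 9.86 on the other 14 arrays (log2). The part of this in the sorted differences was not tested. Of the 82 genes 64 had the same sign in both fractions as in unsorted cells, against 38.2% of all tested genes, and 44 passed with that sign in both. The 82 were chosen for their unsorted difference, while most tested genes lay near 0, so these shares are not on equal terms. Sorted line differences also had medians above 0 over all tested genes, 0.23 in CD10- and 0.31 in CD10+ cells. The sign was opposite in both fractions for 7 genes, S100A8, S100A9, TMC6, JHY, RRAGD, NAMPT and TRIM46. In at least 1 fraction 6 genes passed with the opposite sign, namely S100A8, S100A9, TMC6, JHY, GALNT15 and TFAP2A. Among the 16 lower genes 15 kept their sign in both fractions and 12 passed in both. CFI had 462 and 397 in CD10- M1B26 cells, against 49.0 and 53 in CD10- MCF10A-CT cells (3.05, adjusted p = 1.44e-05), and LCP1 had 939 and 946, against 91.4 and 82.8 (3.42, adjusted p = 2.32e-06). SAMSN1 rose by 5.52 in CD10- cells (adjusted p = 8.08e-05) and by 6.13 in CD10+ cells (adjusted p = 5.56e-06).

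For 33 of the 82 genes the unsorted difference itself differed from the mean of the 2 sorted differences, against 11.9% of all tested genes. The contrast called 332 genes upwards and 1112 downwards with the deposited scaling, but 688 and 725 after quantile normalization, and 98 genes in all without M1B26 unsorted replicate 1. Of the 31 higher genes among the 33, 28 had the larger difference in unsorted cells. The 82 genes were chosen for their unsorted difference, which by itself favours both counts, so neither is read as a result. Over the 33 genes the median of sorted minus unsorted was -0.42 in M1B26 and 1.78 in MCF10A-CT (log2). Sorting by CD10 and the longer handling of sorted cells cannot be told apart.

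S100A8 had 6097 and 6087 in CD10- M1B26 cells, against 10164 and 10809 in CD10- MCF10A-CT cells (-0.78, adjusted p = 0.043), the opposite of the unsorted cells. In CD10+ cells it had 9101 and 10362 in M1B26, against 11297 and 10849 in MCF10A-CT (-0.19, adjusted p = 0.638). Unsorted MCF10A-CT cells, at 3303 and 1545, were the low ones for this gene. S100A9 followed it, at -0.94 in CD10- cells (adjusted p = 0.036) and -0.76 in CD10+ cells (adjusted p = 0.0779). SOCS3 had 295 and 269 in CD10- M1B26 cells, against 41.9 and 104 in CD10- MCF10A-CT cells (2.07, adjusted p = 0.0396), and the sorted control was above the unsorted one. Averaged over both fractions, the SOCS3 line difference was smaller than in unsorted cells by 3.83. TRIM46 was not lower in either fraction (0.13 in CD10- cells and 0.59 in CD10+ cells).

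**Figure D5:**
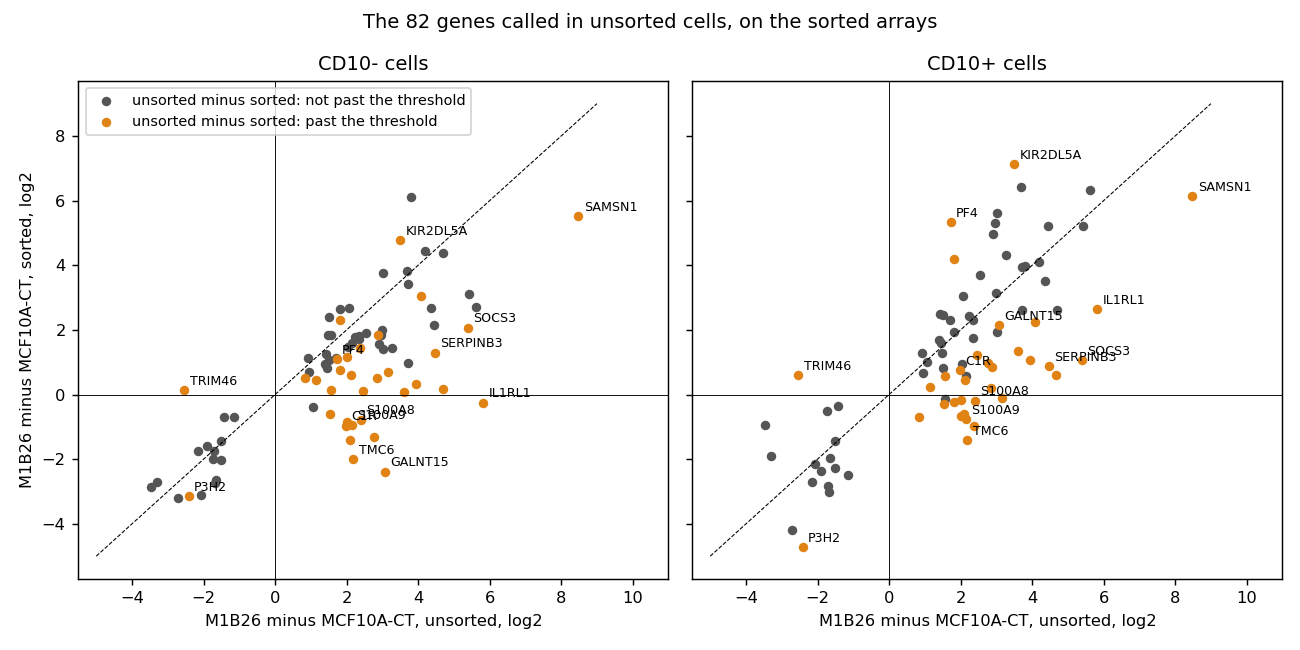
Line difference in CD10- cells (left) and CD10+ cells (right) against that in unsorted cells (log2) for the 82 genes, orange where the unsorted difference differed from the sorted ones (33 genes). The dashed line marks equal differences. S100A8, S100A9, TMC6 and TRIM46, 4 of the 7 genes of opposite sign in both fractions, lie across the zero line in both panels, while IL1RL1 and GALNT15 do so in CD10- cells alone.

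Within M1B26 the unsorted level could be placed between the fractions. It lay between the CD10- and CD10+ levels for 43 of the 82 genes (52.4%), against 33.7% of all tested genes. IL1RL1 had 67.0 and 55.3 in CD10- cells, 1308 and 2407 in CD10+ cells and 956 and 581 in unsorted cells. IL1R2 had 302 and 190 in CD10- cells, 8935 and 7839 in CD10+ cells and 888 and 418 in unsorted cells, and MME had 56.4 and 16 in CD10- cells, 1269 and 1021 in CD10+ cells and 156 and 55.1 in unsorted cells. By group means these 3 genes were thus high in CD10+ M1B26 cells and intermediate in the bulk. For MME the lower unsorted array (55.1) lay just under the higher CD10- array (56.4). LCP1 ran the other way, with 939 and 946 in CD10- cells and 397 and 426 in CD10+ cells. For 20 of the 66 higher genes the unsorted M1B26 level was above both fractions, and for 11 below both.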

How the data were processed

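Total RNA was amplified with a 3′ IVT kit and hybridised to Affymetrix HG-U133 Plus 2.0 arrays. Per the submitters' processing notes, the authors used MAS5 in Affymetrix Expression Console to summarise each probe set, with no versions given in the sources used here. The deposited values are linear intensities, scaled by the authors to a median of 16.7 on every array. Upper quartiles ran from 95.1 to 124, so no quantile normalization had been applied, whereas the study's methods name RMA. No genome build applies. Of 54675 probe sets 41091 had 1 gene, 1801 several and 11721 none here. Analysis used log2(intensity + 1) of the deposited intensities, as MAS5 values are noisy near background and a fold there is uncertain.

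Low genes, with a mean no higher than that of the median probe set, were left out. Then 9 group means (18 arrays) were fitted in R 4.3.3 with limma 3.58.1 (lmFit, eBayes with an intensity trend, two-sided, 9 residual and 6.28 prior degrees of freedom), with Benjamini-Hochberg adjustment within a contrast. The fit was tested on simulated data. Errors after ± are limma SEs. Precision was limited by the number of arrays, with SEs of 0.296 at the median. An exact permutation test of 2 arrays against 2 cannot go below p = 0.333 and was not used.

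Named genes were the 20 largest increases, the decreases, up to 6 members per list with the smallest p and a fixed set (MME, BMPR1B, ID1 to ID3, SOCS3, IL6ST, cadherins, keratins and the like). Other called genes were named, after their values were seen, to account for all 82. The comparison, the 49 gene lists and the tests were chosen with earlier results of these data known. ENI10 was taken from the study. Alternatives covered scaling, pseudocount, filter, probe set choice, arrays in the fit, variance moderation, replicate blocks and leaving out arrays.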

Additional observations from a re-analysis of the deposited data

Results flagged for a closer look

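The line difference in unsorted cells was tested against the mean of the differences in CD10- and CD10+ cells, and 1444 genes passed in limma's fit. The values that follow are unsorted minus sorted line difference on the log2 scale, positive where M1B26 stood further above MCF10A-CT in unsorted cells.

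Among the 82 genes, 33 passed. The widest positive values were IL1RL1 at 4.62, SERPINB4 at 4.29, TMC6 at 3.89, SOCS3 at 3.83, SERPINB3 at 3.37, HSD17B2 at 3.25, GALNT15 at 3.20, JHY at 3.09 and S100A9 at 3.01. MIR210HG had 2.92, S100A8 2.89, C1S 2.87, FGL1 2.87, SAMSN1 2.65, RRAGD 2.51 and KCNMB4 2.50. CES1 had 2.14, C1R 2.08, NAMPT 1.98, MAP1LC3A 1.77, PPP2R2C 1.76, TNIP3 1.60, VWDE 1.54, NRCAM 1.53, P3H2 1.52, CFI 1.44, SLFN5 1.20, TFAP2A 0.95 and IL13RA1 0.81. P3H2 is lower in M1B26, and its positive value means a smaller decrease in unsorted cells. The value for TRIM46, also a lower gene, means a larger decrease in unsorted cells. Negative values were found for TRIM46 at -2.90, KIR2DL5A at -2.46, PF4 at -1.49 and PLAC8 at -1.42.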

How the results depend on the processing

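All 82 genes kept their sign under every alternative that held them, and 10 of them (SAMSN1, IL1RL1, SERPINB3, SRGN, CFI, LCP1, C1S, NRCAM, S100A8 and GSDMC) also kept the call under all. The count of 82 was 142 with the 4 arrays compared alone, 46 with the 6 unsorted arrays and 15 without moderation. Leaving out 1 array gave 20 to 63. The labels number the arrays of each line, but nothing says that a number marks a shared culture. Replicate 1 minus replicate 2 correlated over genes at 0.118 between M1B26 and MCF10A-CT, 0.458 between M1B26 and MC26 and 0.076 between MCF10A-CT and MC26. With the replicate block the count was 99, with line by replicate as a random block 89, and with the block on the 6 unsorted arrays 183 (a fit chosen after seeing the data). Against MC26 the 12 calls became 16 with the replicate block, 59 in that last fit and 4 to 46 with 1 array left out. The 1444 genes that differed between unsorted and sorted cells numbered 98 to 2412 with 1 array left out.

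Complement calls (4) were 2 with the 6 unsorted arrays and 2 without moderation, and 2 to 3 with 1 array left out. Interleukin-1 calls (3) were 1 without moderation. Calls of ENI10 outside cell division (14) were 9 with the 6 unsorted arrays, 8 without a trend, 4 without moderation and 5 to 10 with 1 array left out. The share of called genes with the same sign in both fractions (78.0%) was 65.8% to 85.0% with 1 array left out. The share lying between the fractions (52.4%) was 41.1% with the median over probe sets and 40.0% to 70.0% with 1 array left out. BMPR1B changed sign to 0.03 with the median over probe sets, 0.18 without M1B26 replicate 1 (-0.21 without replicate 2) and 0.01 without MCF10A-CT replicate 1, and ID3 to -1.09 without M1B26 replicate 2 (2.25 without replicate 1). The stricter filter left no gene of MHC class II and gave no value there. The cause was not tested. Genes near background have the least certain sizes.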
